A study of Mus musculus with 5 samples.

Results

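The genes described here are 36 glycolysis and hypoxia-responsive genes of the mouse, among 27962 gene names on the array. Every non-control probe whose gene name in the files was on the list of members was taken, so that the rule itself uses no signal, although the list was drawn up with earlier results of these data known. In all, 35 of the 36 genes had at least 1 probe, 61 probes together, and 56 of these probes passed the filter on dim probes. Gapdh, the glyceraldehyde 3-phosphate dehydrogenase often used as a reference transcript, had no probe under that name, so that its signal is not analysed here.

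ECAT11, also called L1td1, is a protein of undifferentiated ESCs, and the study replaced it by an EGFP knock-in to ask whether mouse ESCs need it. Each of 5 ESC lines gave total RNA for 1 one-colour Agilent array with Cy3 label. Wild-type cells were RF8 (labelled male, 129sv) and #620-2 (labelled female, C57BL6/129sv). The ECAT11EGFP/EGFP group held 3 lines of labelled strain C57BL6/129sv, #620-6 (labelled female), #757-1 and #757-2 (both labelled male). All 5 lines were grown with serum and LIF on gelatin, and no group was treated with low oxygen. RF8 is the established line that was targeted. The other lines, wild-type #620-2 among them, were derived in the study on SNL feeder cells from embryos of mice carrying the allele. Each array stands for 1 line, and the labels do not say whether lines that share their first digits have a common origin. The lines are the replicates, the p-values measure the spread between lines, and the number of arrays limits the precision. Labelled sex coincides with the first digits of the line names, since both #620 lines are labelled female, and sex and derivation cannot be told apart. RF8, #620-2 and #620-6 lay on slide 1 and both #757 lines on slide 2.

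Glycolysis splits glucose into pyruvate and yields ATP without oxygen, and pyruvate then either enters the mitochondrion through pyruvate dehydrogenase or is reduced to lactate and exported. When oxygen falls, the prolyl hydroxylases that mark HIF-1alpha for destruction slow down, and HIF-1 binds short hypoxia response elements and raises transcription of glucose transporters, glycolytic enzymes, Pdk1, Vegfa and other genes. Mouse ESCs in culture are known for a high rate of glycolysis.

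The promoters of the 6 members with the largest differences between the lines labelled female and male are shown with those of the 2 steadiest members, so that the letters of the hypoxia response element can be seen beside the signals described below. The first 4 belong to genes whose signal was higher in the #620 pair, and the next 2 to genes whose signal was lower there. The last 2 belong to the members with the smallest range over the 5 lines, read on each gene's brightest probe. Each run holds the 250 bases before the first listed transcription start, written 5′ to 3′ along the gene, from RefSeq on GRCm38.p6. Capitals mark ACGTG or GCGTG, the core of the hypoxia response element, on either strand (CACGT and CACGC are the same letters read on the other strand), and where matches overlap the capitals run together.
Vegfa, chr17:46032378-46032627, minus strand: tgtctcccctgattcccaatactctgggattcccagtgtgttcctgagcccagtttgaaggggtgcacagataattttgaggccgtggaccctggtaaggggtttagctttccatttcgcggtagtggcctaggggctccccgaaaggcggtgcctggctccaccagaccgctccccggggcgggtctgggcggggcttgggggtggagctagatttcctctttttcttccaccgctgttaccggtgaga
Eno2, chr6:124769674-124769923, minus strand: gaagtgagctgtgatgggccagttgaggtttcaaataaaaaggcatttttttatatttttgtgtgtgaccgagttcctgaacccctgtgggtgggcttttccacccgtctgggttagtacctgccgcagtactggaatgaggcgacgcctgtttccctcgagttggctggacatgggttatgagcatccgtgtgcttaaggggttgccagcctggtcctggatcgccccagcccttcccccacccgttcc
Pfkp, chr13:6648772-6649021, minus strand: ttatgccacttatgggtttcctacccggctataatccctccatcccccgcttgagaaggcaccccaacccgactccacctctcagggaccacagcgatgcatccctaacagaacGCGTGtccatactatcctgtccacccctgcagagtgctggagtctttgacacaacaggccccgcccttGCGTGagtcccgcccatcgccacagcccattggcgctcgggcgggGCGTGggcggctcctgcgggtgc
Egln3, chr12:54203875-54204124, minus strand: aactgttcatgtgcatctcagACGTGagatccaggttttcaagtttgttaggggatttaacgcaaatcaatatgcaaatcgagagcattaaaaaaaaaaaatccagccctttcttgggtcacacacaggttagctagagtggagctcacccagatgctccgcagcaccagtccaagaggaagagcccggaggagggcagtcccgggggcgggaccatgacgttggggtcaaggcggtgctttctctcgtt
Eno3, chr11:70656926-70657175, plus strand: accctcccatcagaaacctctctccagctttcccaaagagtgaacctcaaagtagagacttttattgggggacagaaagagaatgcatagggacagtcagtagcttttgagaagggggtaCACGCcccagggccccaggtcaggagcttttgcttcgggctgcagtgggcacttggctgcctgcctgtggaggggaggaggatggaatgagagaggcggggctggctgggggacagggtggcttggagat
Aldoc, chr11:78322823-78323072, plus strand: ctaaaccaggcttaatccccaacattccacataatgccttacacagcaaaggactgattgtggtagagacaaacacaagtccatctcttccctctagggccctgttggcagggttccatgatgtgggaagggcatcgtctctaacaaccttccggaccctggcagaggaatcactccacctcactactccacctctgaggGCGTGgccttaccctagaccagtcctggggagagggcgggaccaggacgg
Ldha, chr7:46845554-46845803, plus strand: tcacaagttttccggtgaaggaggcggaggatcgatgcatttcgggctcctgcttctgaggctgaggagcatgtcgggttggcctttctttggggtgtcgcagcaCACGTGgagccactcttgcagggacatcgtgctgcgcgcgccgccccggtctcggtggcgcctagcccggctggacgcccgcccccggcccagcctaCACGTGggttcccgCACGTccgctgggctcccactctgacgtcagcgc
Pgam1, chr19:41911621-41911870, plus strand: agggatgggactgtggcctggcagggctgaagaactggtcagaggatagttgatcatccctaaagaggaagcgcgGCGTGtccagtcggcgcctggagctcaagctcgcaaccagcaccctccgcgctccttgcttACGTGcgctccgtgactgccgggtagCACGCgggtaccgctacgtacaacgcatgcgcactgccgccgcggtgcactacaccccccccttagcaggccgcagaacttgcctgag
Vegfa and Eno2 had no match in the runs shown, and a later start listed for Vegfa had 2 matches. Ldha had 7 matches in its window of 300 bases (250 before the start and 50 after), some of them the same letters read on both strands. Over all members, Gapdh included, 34 had a promoter in the table (not Slc2a3 or Ndrg1), and 31 of these, 91.2%, held at least 1 match in the window of at least 1 listed start. The exceptions were Gpi1, Tpi1 and Eno2. A match was held by 46.7% of all 27025 genes listed there and by 52.3% of the 17492 protein-coding ones. The member promoters were also richer in CG, with a median of 24 CG dinucleotides per window against 15 in protein-coding genes, and both motifs contain CG. The matches are a description of letters, and no binding was measured in these lines.

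A signal is given below as log2 of the background-corrected intensity over the array's 75th percentile, so that 0 is the level of that percentile. A gene is represented by its brightest probe that passed the filter, and signals are compared between lines and never between genes. The 75th percentile was 794.4, 763.6 and 767.2 intensity units in RF8, #620-2 and #620-6, and 687.5 and 693.5 in #757-1 and #757-2. On slide 1 between 26371 and 27144 of 41174 probes were well above background, against 22061 and 21250 on slide 2, and no spot was saturated. As a check of the labelled cell type, 9 of 10 pluripotent cell markers had a probe, and all 9 were well above background in all 5 lines. They were not all level, since Zfp42 had log2 signals of 7.0, 6.80, 4.01, 6.56 and 3.87 in RF8, #620-2, #620-6, #757-1 and #757-2, and its second probe was low in the same knock-in lines, #620-6 (1.32) and #757-2 (1.35). Signal of fibroblast markers was present too. Summed over 10 genes, in multiples of the 75th percentile, it came to 62.5 in #620-2 and 64.2 in #620-6, against 21.0 in RF8 and only 6.14 in #757-1 and 8.57 in #757-2. In total RNA of a culture, fewer cells of a type and less RNA per cell cannot be told apart.

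Nearly all members gave a measurable signal in every line. Of the 35 representative probes, 34 were well above background on all 5 arrays. The exception was Pdk2, a kinase that inhibits pyruvate dehydrogenase, which was well above background in the 3 lines of slide 1 and not in the 2 lines of slide 2, with log2 signals between -4.88 and -4.44. The range over the lines, highest minus lowest log2 signal, had a median of 0.66 over the 35 members. For 11 members the range was over 1, that is over 2-fold, and for 13 it was under 0.5. Among members well above background in all lines the median range was 0.72, against 0.60 over all 20622 such probes, and among the 29 with a mean log2 signal above 0 it was 0.66, against 0.48 over 10217 probes.

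The groups of the pathway differed in how steady they were. The median range was 0.22 in the triose phase (5 genes), 0.55 in the hexose phase (9 genes), 0.65 in glucose and lactate transport (4 genes), 0.71 in the fate of pyruvate (4 genes), 0.50 in the 2 flux regulators, 0.52 in oxygen sensing (3 genes) and 1.01 in the other hypoxia-responsive genes (8 genes). None of the last 8 had a range under 0.5. The median of the triose phase hides 2 of its 5 genes, Eno2 and Eno3, with ranges of 1.67 and 1.39. Tpi1, triose phosphate isomerase, was counted in the hexose phase, and no test was made between these small groups. The line #757-1 was lowest in 12 of the 35 members and in 6 of the 8 other hypoxia-responsive genes, and #620-2 was highest in 13.

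**Figure D1:**
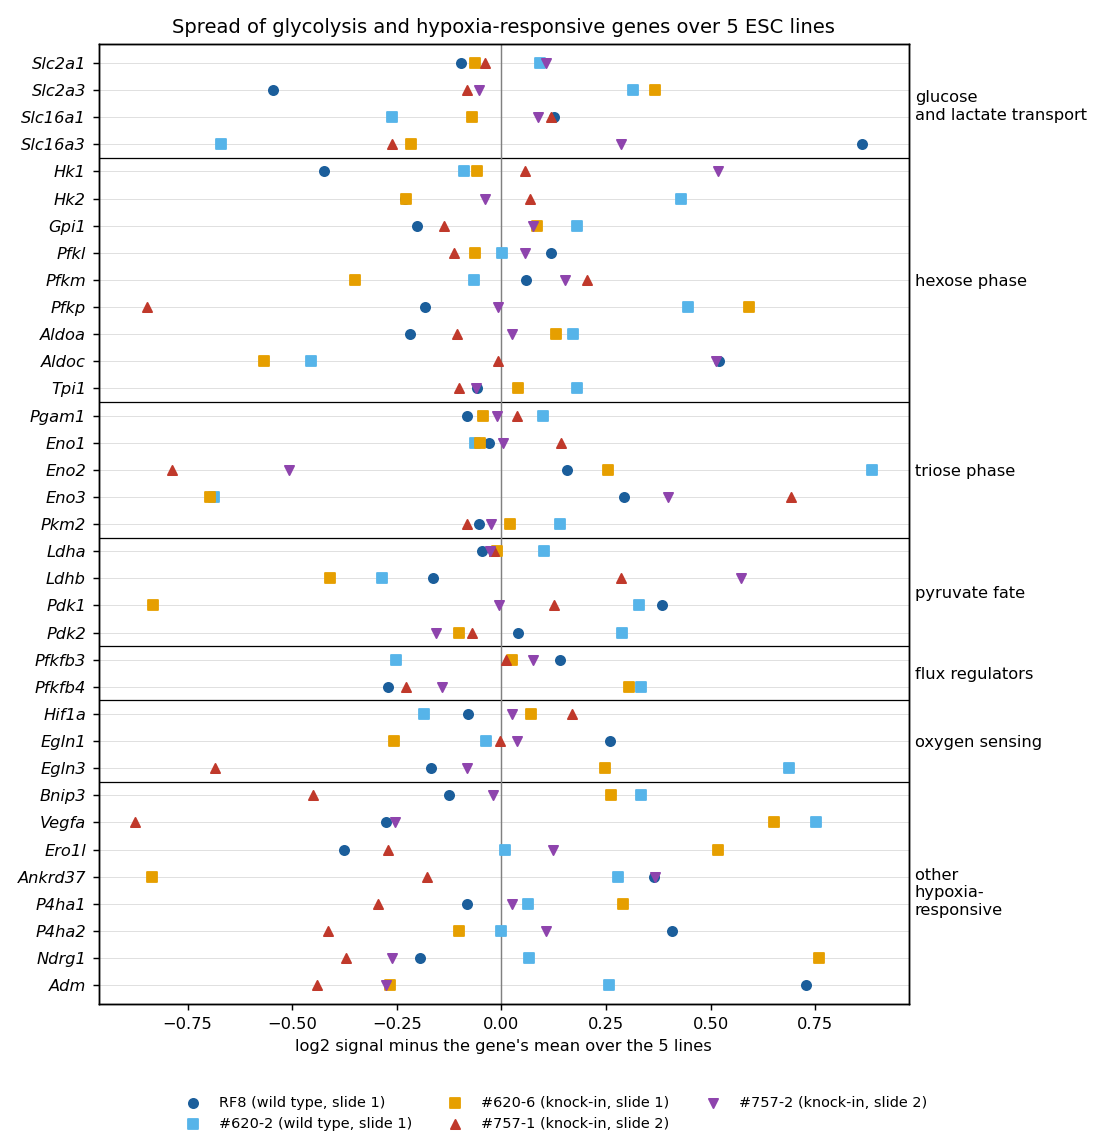
Each point is the log2 signal of a member in 1 of the 5 ESC lines minus the gene's mean over the lines (x axis, log2 units), with genes grouped by role on the y axis and lines by symbol and colour. Pgam1, Eno1, Pkm2 and Ldha have ranges of at most 0.22, while Eno2 spans 1.67 and Vegfa 1.63.

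Several genes of the trunk of the pathway had the smallest ranges. Ldha, which reduces pyruvate to lactate, had log2 signals of 6.97 in RF8, 7.12 in #620-2, 7.01 in #620-6, 7.0 in #757-1 and 6.99 in #757-2. Pgam1, a phosphoglycerate mutase, ranged from 6.80 to 6.98, Eno1, the enolase that most tissues use, from 2.64 to 2.84, and Pkm2, pyruvate kinase, from 5.76 to 5.99. Slc2a1, the basal glucose transporter, ranged from 5.64 to 5.84. On the representative probes, lines of either genotype lay among each other in all 5 of these genes. The second, dimmer Ldha probe had log2 signals of 6.72, 6.85, 6.63, 6.47 and 6.42 in the same order of lines, a range of 0.43. On that probe the knock-in lines were all below both wild-type lines, with a log2 fold change of -0.28 (limma adjusted p 0.796). Pfkl, a phosphofructokinase, and Tpi1, triose phosphate isomerase, had ranges of 0.23 and 0.28. Hif1a, the oxygen-regulated subunit of HIF-1, whose control is mostly at the protein level and so not seen here, ranged from 2.16 to 2.51.

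Other members varied more. Pfkp, the platelet-type phosphofructokinase, had log2 signals of 1.86, 2.49, 2.63, 1.20 and 2.03 in RF8, #620-2, #620-6, #757-1 and #757-2, the order kept from here on. Eno2, the neuron-type enolase, had -3.22, -2.49, -3.12, -4.16 and -3.88, and Eno3, the muscle-type enolase, 2.72, 1.74, 1.73, 3.12 and 2.83. Pfkp was highest in the #620 pair and lowest in #757-1, Eno2 was lowest in the #757 pair, and Eno3 was lowest in the #620 pair, whose 2 values were close together. Aldoc, the brain-type aldolase, had 1.48, 0.50, 0.39, 0.95 and 1.47, again with the #620 pair lowest. Slc16a3, the lactate exporter MCT4, had 5.72, 4.19, 4.65, 4.60 and 5.15, and Hk1, a hexokinase, had 1.50, 1.83, 1.86, 1.98 and 2.44. For Slc16a3, RF8 stood above the other lines, and the 2 wild-type lines were its highest and lowest. Over the 10 pairs of lines, between 0 and 5 of the 35 members differed by over 2-fold. None did between #757-1 and #757-2, where 6.69% of all probes did, and 5 did between #620-6 and #757-1, where 18.5% of all probes did. The 28898 probes behind these shares include dim ones, whereas 34 of the 35 members were well above background on all 5 arrays.

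The first comparison asked whether cells with the knock-in allele in place of ECAT11 differed from wild-type cells in these genes. No member probe was called at an adjusted p under 0.05 and a change over 2-fold (0 of 56), and of all 28972 probes 0.00345% were called (limma, two-sided, Benjamini-Hochberg over all probes). The smallest adjusted p of a member probe was 0.495. At an unadjusted p under 0.05 there were 2 of 56 probes, 1 each of Adm and Ero1l, against 7.6% of all probes. The methods' t-test gave 3 member probes at an unadjusted p under 0.05 and 0 after the adjustment. Of the 35 members, 15 were above 0 and 20 below, against 47.4% of all probes above 0. Their median log2 fold change was -0.05 (-0.02 over all probes), and the values ran from -0.87 to 0.43, so that none reached 2-fold. The 95% interval stayed within 2-fold either way for 20 members, among them Slc2a1, Aldoa, Tpi1, Pgam1, Eno1, Pkm2, Ldha and Hif1a. For the other 15 the interval reached past 2-fold. The smallest p that 2 lines against 3 allow in an exact permutation test is 0.1.

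Adm, which encodes the vasodilator peptide adrenomedullin, had the smallest p of the 35. Its log2 signals were -2.08, -2.55, -3.07, -3.25 and -3.08, so that all 3 ECAT11EGFP/EGFP lines were below both wild-type lines. Wild-type lines had a mean of -2.31 ± 0.33 (SD, n = 2), and ECAT11EGFP/EGFP lines one of -3.13 ± 0.10 (SD, n = 3), a log2 difference of -0.82 (SE 0.20, 95% interval -1.36 to -0.28, limma adjusted p 0.495), and it did not pass the adjustment. With normexp background correction the Adm difference was smaller, at -0.49 (limma adjusted p 0.647). Groups did not overlap for 5 of the 35 members (Hk1 and Hif1a higher, Pdk1, Pdk2 and Adm lower in the knock-in lines), against 23.5% of all probes. On the other probes of Hk1 and Pdk1 that passed the filter the groups overlapped. Pdk2 was not well above background in #757-1 and #757-2, so its order there is not measured.

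Eno2 had the largest genotype difference among the members, a log2 fold change of -0.87 (SE 0.41, 95% interval -1.95 to 0.22, limma adjusted p 0.747), and #620-6 lay between the 2 wild-type lines. The same difference was -0.41 with normexp and -0.27 within slide 1, and leaving out a line moved it between -1.23 and -0.50. Pdk1, which shuts pyruvate dehydrogenase, had log2 signals of 2.54, 2.49, 1.33, 2.28 and 2.15, and Ankrd37, an ankyrin repeat protein induced by hypoxia, had 1.35, 1.27, 0.15, 0.81 and 1.36. In both, #620-6 stood far below the other 4 lines, and the log2 fold changes, -0.59 (95% interval -1.49 to 0.30) for Pdk1 and -0.54 (-1.55 to 0.48) for Ankrd37, rest in good part on that line: without it they were -0.30 and -0.23. Hk1, at 0.43 (-0.23 to 1.08), and Egln3, at -0.43 (-1.50 to 0.63), completed the 6 largest. For Egln3 the value was -0.0053 without #620-2, -0.86 without RF8, -0.18 without #757-1 and -0.01 within slide 1.

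The lines #620-2 and #620-6 share labelled sex, labelled strain and slide, and each is 1 array, so that their difference has no replicate check. Of the 35 members 11 were higher and 24 lower in #620-6, with a median log2 difference of -0.10 (-0.02 over all probes). Pdk1 (-1.16) and Ankrd37 (-1.11) differed by over 2-fold, as did 11.6% of all probes, dim ones included. The second probe of Pdk1 had -1.21 in the same pair, but its log2 signals of 0.88, 1.69, 0.48, 1.06 and 0.70 put #620-2 above the rest, with #620-6 only slightly below #757-2. Ndrg1, a stress-responsive gene also raised by hypoxia, was higher in #620-6 by 0.69, and Hk2, the inducible hexokinase, lower, at -0.66. Within slide 1, #620-6 minus the mean of RF8 and #620-2 gave -1.19 for Pdk1, -1.16 for Ankrd37, -0.76 for Adm and -0.27 for Eno2.

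**Figure D2:**
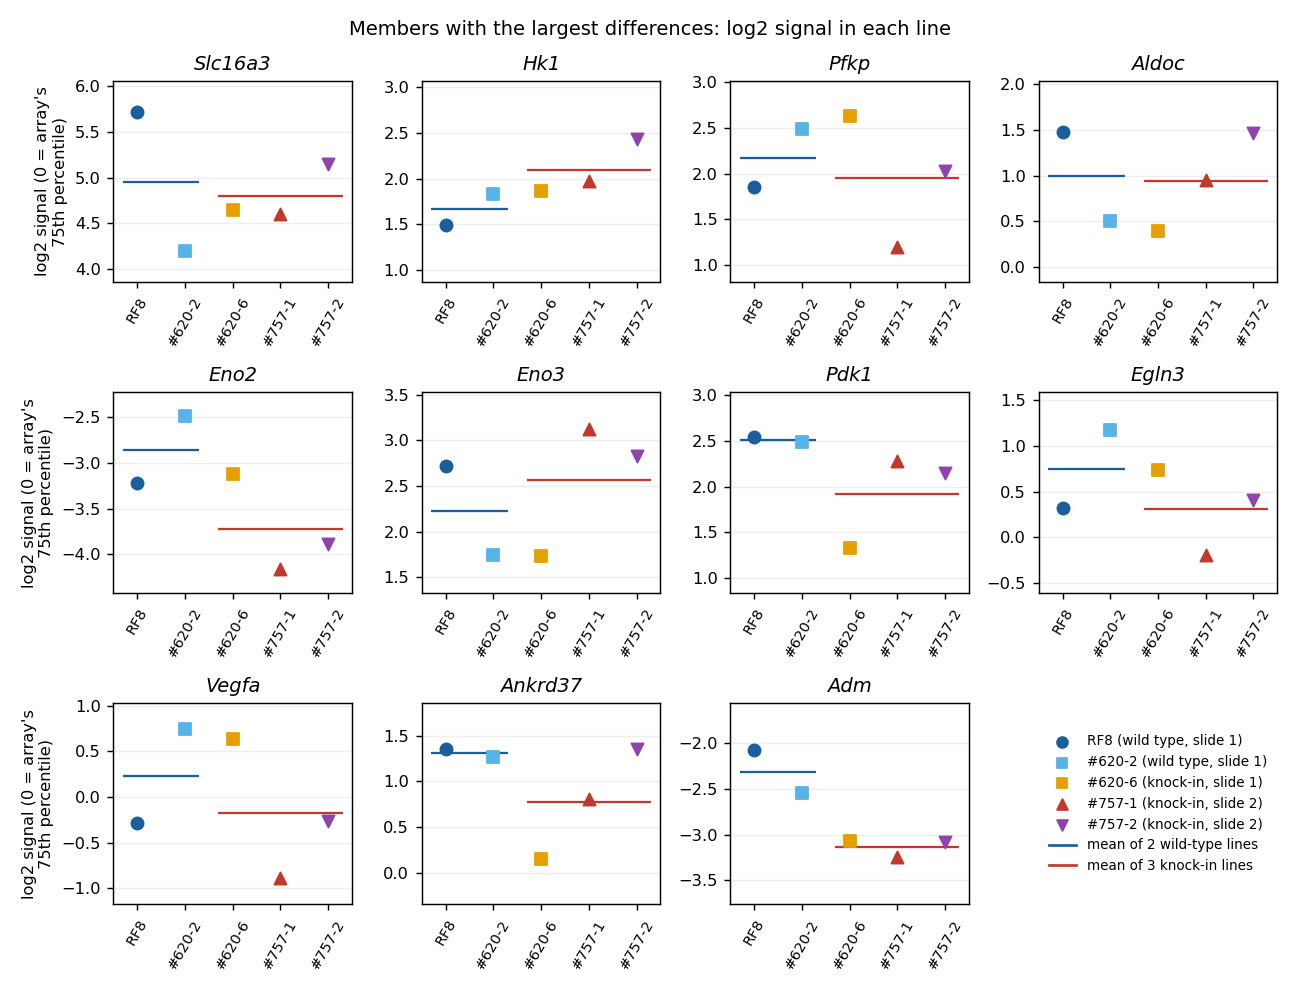
Log2 signal (y axis, 0 is the array's 75th percentile, each panel spans the same 2.2 log2 units) of the 11 members with the largest differences in each of the 5 ESC lines (x axis), with horizontal lines at the means of the 2 wild-type and the 3 ECAT11EGFP/EGFP lines. The #620 pair is highest for Vegfa and lowest for Eno3 and Aldoc, and #620-6 alone is low for Pdk1 and Ankrd37.

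The second comparison set the lines labelled female, #620-2 and #620-6, against those labelled male. It uses the same 5 arrays as the first, so the results are not independent of each other. Again no member probe was called (0 of 56, against 0.342% of all probes), and the smallest adjusted p was 0.087 (limma). At an unadjusted p under 0.05 there were 13 of 56 member probes, against 18.0% of all probes. Among the 35 representative probes, 7 were higher in the #620 pair at that p (9.62% of all probes) and 2 lower (8.39%). The members' log2 fold changes were above 0 for 19 and below for 16, against 48.3% of all probes above 0, with a median of 0.05 (-0.02 over all probes) and values from -1.15 to 1.17. Groups did not overlap for 14 members that were higher and 7 that were lower, against 18.7% and 20.3% of all probes, 39.0% together. The 95% interval stayed within 2-fold for 21 of the 35.

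Vegfa, the secreted factor that drives blood vessel growth and a classical HIF-1 target, had log2 signals of -0.29, 0.74, 0.64, -0.89 and -0.27. Both #620 lines were above all 3 others. The mean was 0.69 ± 0.07 (SD, n = 2) in the lines labelled female and -0.48 ± 0.35 (SD, n = 3) in those labelled male, a 2.25-fold difference (log2 1.17, SE 0.24, 95% interval 0.53 to 1.81, limma adjusted p 0.133). Its other 2 probes gave log2 fold changes of 1.28 and 1.09, and all 3 probes share the RNA of the same 5 lines. Within slide 1 the #620 pair exceeded RF8 by 0.98.

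Eno3 went the other way and had the smallest p of the members. Its mean log2 signal was 1.74 ± 0.01 (SD, n = 2) in the #620 pair and 2.89 ± 0.21 (SD, n = 3) in the lines labelled male, a log2 difference of -1.15 (SE 0.17, 95% interval -1.60 to -0.70, limma adjusted p 0.087), and -0.98 within slide 1. With normexp background correction the same difference was -1.13 with an adjusted p of 0.0351 (limma) and was called. Aldoc was also lower in the #620 pair, by -0.85 (95% interval -1.43 to -0.28, limma adjusted p 0.170), with -1.03 within slide 1. Its second, dimmer probe gave -1.55 and was not well above background in #620-2 and #757-1.

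Other members differed in both directions without passing the adjustment. After Eno3 and Aldoc, the largest lower values in the #620 pair were those of Slc16a3 and Ldhb. Slc16a3 had a log2 fold change of -0.74 (-1.74 to 0.27) with overlapping groups, and -1.30 within slide 1. Ldhb had -0.58 (-1.25 to 0.09) without overlap, and -0.18 within slide 1. The members that follow were higher in the #620 pair. Egln3, a prolyl hydroxylase that marks HIF-1alpha and is itself induced by hypoxia, had log2 signals of 0.32, 1.18, 0.74, -0.20 and 0.41 and a log2 fold change of 0.78 (95% interval 0.09 to 1.47, limma adjusted p 0.240). Pfkp had 0.87 (0.09 to 1.64) and Eno2 0.95 (-0.02 to 1.91). Within slide 1 the values were 0.64 for Egln3, 0.70 for Pfkp and 0.41 for Eno2, and that of Eno2 was 0.45 with normexp. Slc2a3, the high-affinity glucose transporter, had 0.57 (0.03 to 1.11), Bnip3, a mitophagy receptor, 0.50 (0.02 to 0.97), Ndrg1 0.69 (0.04 to 1.33) and Pfkfb4, which makes the phosphofructokinase activator fructose 2,6-bisphosphate, 0.53 (0.20 to 0.86). All of these values are log2 fold changes of the #620 pair against the other 3 lines, with 95% intervals. On the representative probes the 2 groups did not overlap in any of the 7 higher genes. The other 2 Pfkp probes that passed the filter gave 0.67 (-0.50 to 1.84) and 0.35 (-0.20 to 0.90). A dimmer Slc2a3 probe on chromosome 6 gave 0.59 (-0.44 to 1.62), and the groups overlapped on each of these.

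Markers of other cells also differed between the same pair of lines and the other lines, in both directions. Of 10 fibroblast markers 7 were above 0 in this comparison, with a median log2 fold change of 1.45, and S100a4 was called (log2 6.70, limma adjusted p 0.0404). Of 6 endoderm markers 6 were above 0 with a median of 1.86, and Sox17 was called (log2 2.13, limma adjusted p 0.0364). The summed endoderm signal, in multiples of the 75th percentile, was 1.03 in both #620 lines, against 0.281 in RF8, 0.391 in #757-1 and 0.350 in #757-2. Of the 6 endoderm markers, 3 were well above background in all 5 lines. Gata4 and Sox17 were not well above background in the #757 lines, so that their fitted differences have no measured level there. Afp and Lum were well above background only in the #620 pair. Of 9 pluripotent cell markers 8 were above 0 (median 0.35), with Klf4 at 1.86 and Nanog at 1.02, neither called. Of 5 trophoblast markers 3 were above 0 (median 0.35). The 6 mesoderm and neural markers that passed the filter went the other way, with 2 above 0 and a median of -0.75. At an unadjusted p under 0.05, 3 of them were lower, against 8.39% of all probes. The part of other cells in the signals of Vegfa, Eno3 and the other members was not tested.

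**Figure D3:**
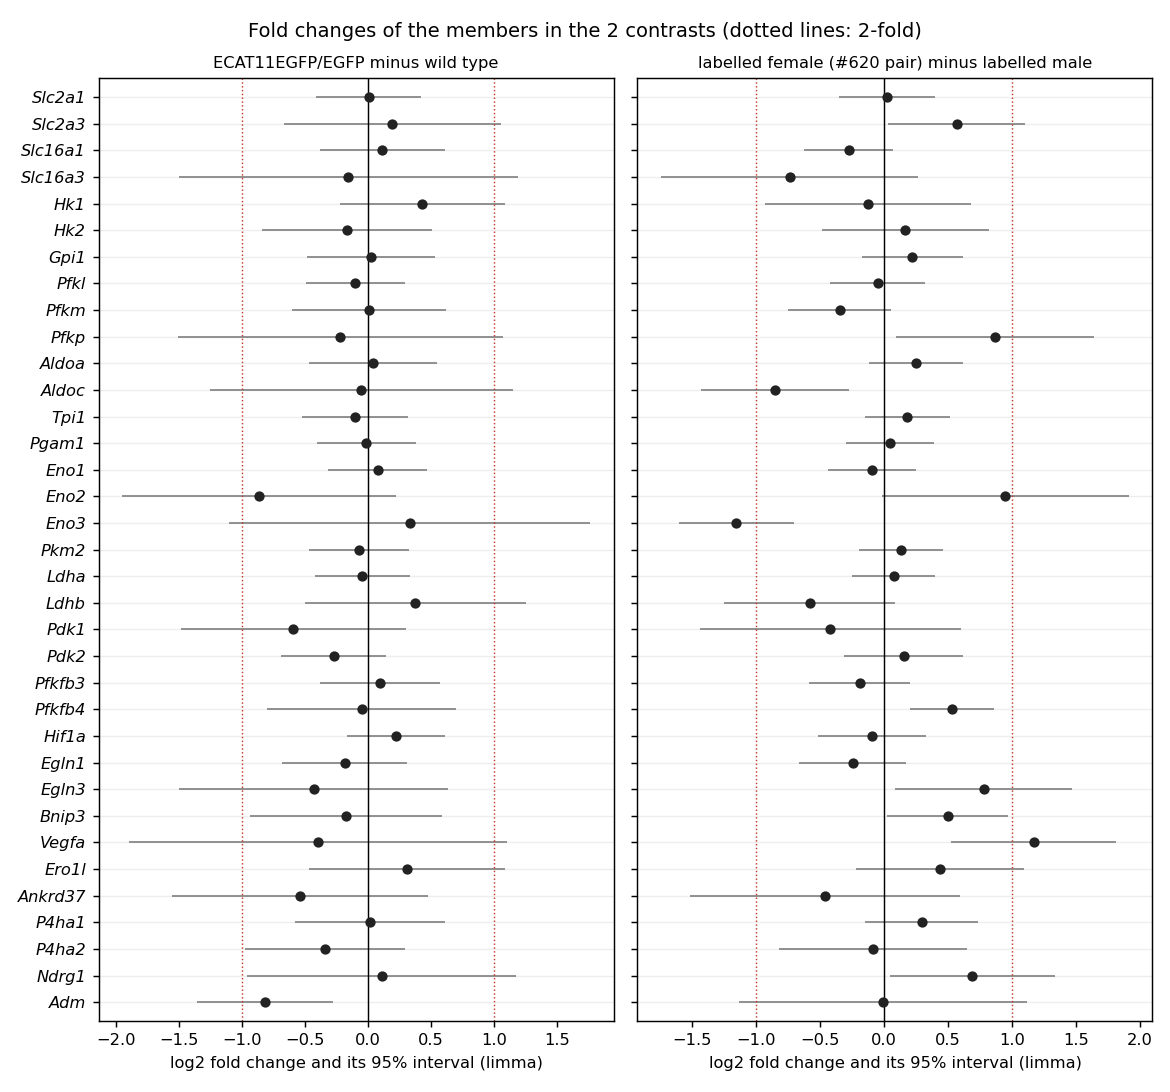
Log2 fold change (x axis, points) with its 95% interval from limma (horizontal bars) for the 35 members (y axis) in ECAT11EGFP/EGFP minus wild-type lines (left) and in lines labelled female minus lines labelled male (right), with dotted lines at 2-fold. On the left no point passes 2-fold, and on the right Vegfa (1.17) and Eno3 (-1.15) do.

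Several genes had more than 1 probe, and the probes bear on how far a value can be trusted. All 3 probes of Vegfa and both of Eno2 had the same course over the lines, though the second Eno2 probe was not well above background in the #757 lines, and both of Aldoc had the #620 pair lowest. The 3 probes of Pfkp did not, with genotype log2 fold changes of -0.22, -0.89 and 0.20. In the genotype comparison the probes of Slc16a1, Pfkp, Aldoc and Pkm2 were of unlike sign, and in the other comparison those of Slc2a3, Hk1, Pkm2, Pdk1 and Ero1l. The brighter probe of Ero1l, a thiol oxidase of the endoplasmic reticulum, gave 0.31 (95% interval -0.47 to 1.09) for genotype and the dimmer one 0.60 (0.20 to 1.01, limma adjusted p 0.495). Another Slc2a3 probe was placed on chromosome 17, while the others were on chromosome 6, and it was well above background in #757-1 alone. Probe positions are on mm7, for which no annotation was used, so exons and UTRs are not assigned. The representative Vegfa probe is placed at chr17:44146842-44146901, that of Eno3 at chr11:70744001-70744060 and that of Adm at chr7:106544845-106544904 on that build.

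**Figure D4:**
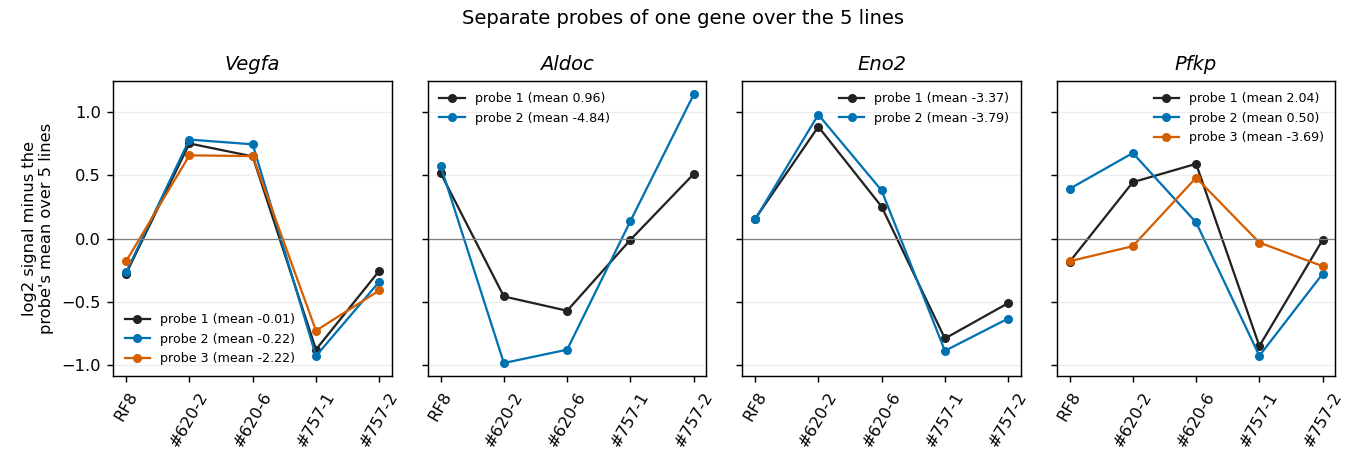
Log2 signal minus the probe's mean over the 5 ESC lines (y axis, log2 units) in each line (x axis) for the separate probes of Vegfa, Aldoc, Eno2 and Pfkp, with the probe's mean log2 signal in the legend. The 3 Vegfa probes follow each other, and the Pfkp probes do not.

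Other genes of the same pathways were read from the same fits. Of 27 further glycolysis and pyruvate genes 24 passed the filter, and none was called in either comparison. The smallest adjusted p was 0.765 for genotype and 0.111 for labelled sex (limma). At an unadjusted p under 0.05 there were 0 genes for genotype, against 7.6% of all probes. In the #620 pair 5 were higher at that p and 1 lower, against 9.62% and 8.39% of all probes. The 5 were Pgk1, Pdk3 and Pfkfb1, which are placed on chromosome X, and Fbp1 and Fbp2. The lower one was Slc16a7, well above background in RF8 alone. Pgm1, a phosphoglucomutase, had the largest genotype difference, a log2 fold change of -0.90 (limma adjusted p 0.797). Its log2 signals were 1.76, 3.34, 1.81, 1.42 and 1.71, so that #620-2 alone stood above the other lines and the groups overlapped. The fructose bisphosphatases Fbp2 and Fbp1, which run a glycolytic step backwards, had the largest differences between the #620 pair and the other lines, 2.22 (95% interval 0.01 to 4.43, limma adjusted p 0.276) and 1.53 (0.15 to 2.90, adjusted p 0.242). The log2 signals of Fbp2 were -3.03, -2.27, -0.02, -4.30 and -2.77, so that #620-6 stood apart from #620-2.

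All 32 further hypoxia genes passed the filter. None was called for genotype, with a smallest adjusted p of 0.379 (limma). At an unadjusted p under 0.05 there were 2 higher and 1 lower, against 7.6% of all probes in either direction. The largest genotype difference was in Ak4, a mitochondrial adenylate kinase, whose log2 signals were -0.37, 0.13, 1.43, 0.80 and 1.58. All 3 ECAT11EGFP/EGFP lines were above both wild-type lines, and the log2 fold change was 1.39 (limma adjusted p 0.467). For labelled sex 1 gene was called, Nrn1, the neurite protein neuritin, at -0.42 in both #620 lines and between -6.36 and -5.91 in the others, where it was not well above background. It was at least 21.9-fold higher in the #620 pair (limma adjusted p 0.00993). Lox, a collagen cross-linking enzyme that fibroblasts secrete, was not well above background in #757-1 and #757-2, so that its fitted difference has no measured level there and is not given. Against RF8, where it was measured, the #620 pair was higher by 2.36 on the log2 scale, with no replicate of RF8. The summed fibroblast marker signal of that pair was also the highest, although RF8 was the highest line for 5 of the 10 markers. Whether the Lox signal goes with those markers was not tested.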

How the data were processed

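The authors scanned 5 one-colour arrays and, per the file headers, extracted them with Feature Extraction 9.5.3.1, which subtracted background. The deposited files hold an intensity for each of 45018 spots per array, not normalized between arrays, and another deposited file holds log2 values of the same arrays, centred by probe (slope 1.00, Pearson r 0.999873 across 20622 probes, which are not replicates, against differences between arrays of the scanner values). No per-sample column was left unused.

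Control spots (1639) were left out, marked spots (0.335%) set missing, intensities divided by the array's 75th percentile, log2 taken and spots of 1 probe averaged. Probes present on at least 1 array (28972) were fitted with limma 3.58.1 in R 4.3.3 (two-sided, Benjamini-Hochberg). Probes called had an adjusted p under 0.05 and a change over 2-fold, thresholds from the authors' methods, whose t-test served as an alternative. If no array of a group had a probe well above background, its fold is a lower bound against the lowest signal well above background. Values were given in full for the 6 members with the largest change in each comparison, the 6 with the largest range, and, from the 2 other pathway lists, called genes and the 2 largest changes, of which 1 is not reported here and others without a measured level are left out. Alternatives were quantile normalization, normexp with an offset of 50, the log2 table as deposited, other filters, marked spots kept, the slide as a block, labelled sex or genotype as a covariate, the mean of a gene's probes, and each line left out. Members and lists were chosen with earlier results of these data known. Of 61 member probes 51 had an accession that RefSeq lists. The code was tested on simulated data. Tables and figures used the R package data.table (version 1.17.8), Python 3.11.15, pandas 2.3.3 and matplotlib 3.10.9. ECAT11 itself is not analysed here.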

Additional observations from a re-analysis of the deposited data

How the results depend on the processing

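Of 308 alternative log2 fold changes of the 11 members with full values, 290 kept direction and side of the threshold. No member probe was called for genotype under any alternative run. For labelled sex, normexp called 1 member probe (Eno3, -1.13), and the other alternatives called none. With the slide as a block, log2 fold changes for genotype reversed in Pfkp (0.46), Eno3 (-0.50) and Vegfa (0.41), and for labelled sex in Hk1 (0.35). Slide 2 held a single genotype and a single labelled sex, so these values are the differences within slide 1. There #620-6 is the only ECAT11EGFP/EGFP line and RF8 the only line labelled male. With the mean of a gene's probes, Aldoc for genotype was 0.14. Leaving out each line in turn, genotype values ran from -0.54 to 0.43 for Aldoc, -0.56 to 0.16 for Pfkp, -0.93 to 0.61 for Slc16a3, -0.16 to 0.82 for Eno3, -0.91 to 0.12 for Vegfa and -0.12 to 0.028 for the members' median. Labelled sex values ran from -1.0 to 0.16 for Pdk1, -1.02 to 0.095 for Ankrd37, -0.27 to 0.35 for Adm, -0.36 to 0.11 for Hk1 and -0.039 to 0.16 for the median. The cause of the differences between lines behind these reversals was not tested. A count of probes has no value under the mean of a gene's probes. No paired analysis was possible because the labels number no replicates. Slide 2 held knock-in lines labelled male only and had fewer probes well above background, which limits dim members such as Pdk2 and Eno2.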

Other observations

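None of the 35 members is placed on chromosome X, but 4 of the further glycolysis genes are: Pgk1, phosphoglycerate kinase, Pdk3, a pyruvate dehydrogenase kinase, Pdha1, a subunit of pyruvate dehydrogenase, and Pfkfb1, a bifunctional enzyme of fructose 2,6-bisphosphate. These 4 were singled out after their values were seen. Pgk1 had log2 signals of 6.69 in RF8, 7.36 in #620-2, 7.28 in #620-6, 6.61 in #757-1 and 6.71 in #757-2, so that both lines labelled female were above the other 3. The log2 fold change of the lines labelled female against those labelled male was 0.65 (95% interval 0.32 to 0.98, limma adjusted p 0.118) for Pgk1, 0.73 (0.38 to 1.08, adjusted p 0.111) for Pdk3, 0.47 (0.06 to 0.88, adjusted p 0.236) for Pfkfb1 and 0.63 (-0.04 to 1.29, adjusted p 0.297) for Pdha1. None was called. Over the 1052 probes placed on chromosome X that passed the filter, the median was 0.55, and 80.2% were above 0.

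Epas1, which encodes HIF-2alpha, had log2 signals of -2.45, 0.16, -0.12, -1.48 and -1.42 in the same order of lines, higher in both lines labelled female (log2 fold change 1.80, 95% interval 0.82 to 2.79, limma adjusted p 0.132), and it was not called. It was singled out after its values were seen.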
